A study of Mus musculus with 62 samples.

Results

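Sterol-synthesis-high and sterol-synthesis-low cells are the 2 ends of a ranking of single tumour cells by their cholesterol synthesis transcripts. They were selected on measured values. Each library in which ERCC spike-ins, synthetic RNAs added in known amount, took under 20% of all counts was given a sterol score, the mean level of Hmgcs1, Idi1, Sqle, Msmo1 and Fdps. The 12 libraries of highest score form the high cells and the 12 of lowest score the low cells, 24 of the 62 libraries in all. A further 26 libraries under the same limit lay between them and are called the middle cells, and 12 libraries at or above the limit were left out. A level is log2(CPM + 1), where CPM is a gene's count scaled to a common total over gene rows.

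All cells were KPC1199-EGFP, an EGFP-expressing pancreatic cancer line on a C57BL/6 strain background, kept as an untreated adherent culture at passage 9 in medium with serum. They were trypsinised, then captured and amplified singly on the Fluidigm C1 system (medium-sized chip), and Nextera XT libraries were made. High and low cells thus share line, passage, medium and handling, and were set apart by measured RNA alone. The series tests a protocol that recovers both DNA and RNA profiles from single cells, and these libraries are of its cultured tumour line. The labels name 1 line and 1 culture, so the cells are not replicates of a condition, no p-value was computed, and errors are SDs over cells.

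Cholesterol is built from acetyl-CoA through mevalonate, isoprenoid pyrophosphates, squalene and lanosterol. When sterol in the endoplasmic reticulum is low, SCAP escorts the membrane-bound factor SREBP2 to the Golgi, where proteases release it to activate genes of this route and of sterol uptake. INSIG proteins hold SCAP back when sterol is plentiful. The related factor SREBP1 acts mainly on fatty acid synthesis.

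Promoters of 4 cholesterol synthesis genes are shown because members of the route were higher together in high cells and SREBP sites are known to lie beside CCAAT boxes bound by NF-Y. Each runs from 250 bases before to 50 bases after the gene start, 5′ to 3′ on the gene's strand, from RefSeq on GRCm38.p6. Capitals mark the sterol element letters TCACNCCAC and CCAAT on either strand. Hmgcs1 makes HMG-CoA, Idi1 isomerises isopentenyl pyrophosphate, Msmo1 removes methyl groups from sterols, and Cyp51 demethylates lanosterol. The windows are chr13:119690101-119690400 (plus strand) for Hmgcs1, chr13:8885356-8885655 (plus) for Idi1, chr8:64733529-64733828 (minus) for Msmo1 and chr5:4104648-4104947 (minus) for Cyp51.

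Hmgcs1: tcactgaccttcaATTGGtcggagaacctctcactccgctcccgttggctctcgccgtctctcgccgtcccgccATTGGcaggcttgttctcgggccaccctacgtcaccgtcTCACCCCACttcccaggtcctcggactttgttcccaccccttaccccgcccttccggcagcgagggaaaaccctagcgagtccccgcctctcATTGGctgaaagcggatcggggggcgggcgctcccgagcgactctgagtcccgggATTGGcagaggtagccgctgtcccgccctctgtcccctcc
Idi1: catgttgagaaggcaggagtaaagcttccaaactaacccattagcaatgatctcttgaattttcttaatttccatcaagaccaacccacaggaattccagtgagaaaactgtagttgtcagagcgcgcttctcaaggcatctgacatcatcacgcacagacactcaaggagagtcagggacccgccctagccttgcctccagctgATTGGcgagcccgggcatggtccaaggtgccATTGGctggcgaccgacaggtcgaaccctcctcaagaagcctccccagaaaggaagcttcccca
Msmo1: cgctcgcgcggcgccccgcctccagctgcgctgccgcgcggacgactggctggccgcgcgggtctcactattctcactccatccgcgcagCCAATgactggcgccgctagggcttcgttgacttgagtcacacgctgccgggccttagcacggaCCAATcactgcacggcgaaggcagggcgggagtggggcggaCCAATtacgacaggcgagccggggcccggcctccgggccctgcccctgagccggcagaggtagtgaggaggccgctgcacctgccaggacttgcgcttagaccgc
Cyp51: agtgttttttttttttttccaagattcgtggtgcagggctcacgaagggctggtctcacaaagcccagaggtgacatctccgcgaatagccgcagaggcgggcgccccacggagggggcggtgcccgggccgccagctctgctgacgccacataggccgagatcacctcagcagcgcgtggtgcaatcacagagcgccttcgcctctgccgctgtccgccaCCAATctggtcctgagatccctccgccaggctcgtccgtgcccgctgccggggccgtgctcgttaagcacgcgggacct

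CCAAT occurred 4 times in the Hmgcs1 window, 2 times in that of Idi1, 3 times in that of Msmo1 and 1 time in that of Cyp51. The promoter table held 16 of the 21 cholesterol synthesis genes (5 in the score and 16 outside it). At least 1 CCAAT lay in a window of 15 of these 16 genes (93.8%), against 41.1% of the 27025 genes in the table and 43.5% of the 9195 genes compared below that it held. The exception was Acat2. TCACNCCAC was found in 1 of the 16, Hmgcs1, starting at base 114 of its window, and in 1.44% of all genes and 1.46% of the compared genes. CANNTG, the E-box form, was found in 11 of the 16 (68.8%), against 75% of all genes and 67.6% of the compared genes. All 3 were searched on both strands, and a match of one motif may overlap a match of another, as CANNTG at base 12 of the Hmgcs1 window does with CCAAT at base 14. These counts describe letters in a window, and no binding was measured.

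The ranking had no gap at either edge. Scores ran from 9.98 to 9.12 in the high cells, and the first cell outside stood at 9.03. In the low cells they ran from 3.81 to 7.75, and the first cell outside stood at 7.76. The median score was 9.71 in high, 8.62 in middle and 7.10 in low cells. The high cells were thus close together while the low cells spread over a wide range, with 2 cells at 3.81 and 5.27 below the rest.

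**Figure D1:**
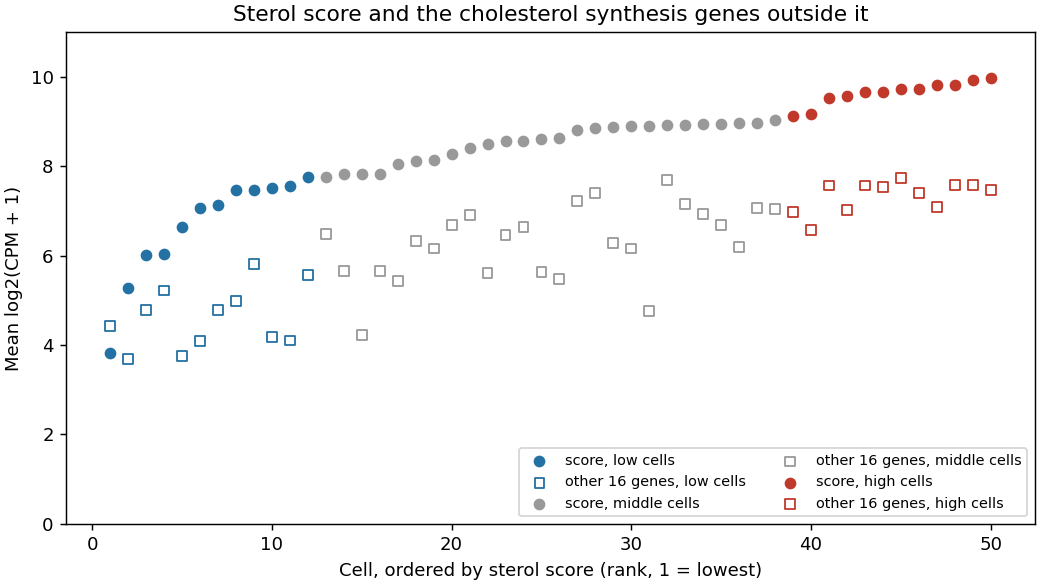
Sterol score (filled circles) and mean level of the 16 cholesterol synthesis genes outside it (open squares) in each of the 50 cells, in log2(CPM + 1), against the rank of the cell by score; colours mark low, middle and high cells. The squares were not used for the ranking, and all 12 high cells (6.57 to 7.74) lie above all 12 low cells (3.68 to 5.82).

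The 5 genes of the score are given as a description, since they chose the cells. In what follows, 3 values in a row are the lowest, the median and the highest of the 12 cells. Fdps, which makes farnesyl pyrophosphate, stood at 10.71, 11.06 and 11.80 in high cells and at 7.22, 8.75 and 9.30 in low cells, a ratio of mean CPM of 5.48. Msmo1 stood at 9.10, 10.69 and 11.19 against 4.42, 7.73 and 9.42, and Idi1 at 8.72, 9.85 and 10.30 against 0.88, 6.98 and 8.49. Every high cell thus held substantial levels of all of them, and 1 low cell held Hmgcs1 at 0. Hmgcs1 stood at 7.33, 8.02 and 8.78 against 0.00, 5.67 and 6.98. Sqle, the squalene epoxidase, stood at 7.31, 8.78 and 9.39 against 2.89, 6.01 and 8.39.

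Each score gene was also compared between cells ranked on the other 4, so that its own level did not choose them. The differences of mean level were then 2.15 for Hmgcs1, 2.64 for Idi1, 2.24 for Sqle, 2.99 for Msmo1 and 2.32 for Fdps. The groups overlapped for each of the 5. Over the 50 cells the Spearman rho of a score gene with the mean of the other 4 was 0.62 for Hmgcs1, 0.72 for Idi1, 0.62 for Sqle, 0.75 for Msmo1 and 0.79 for Fdps. These genes therefore tracked each other from cell to cell without marking 2 separate classes of cell. All rho values here are descriptions over cells of 1 culture that share library, scaling and depth effects.

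The ends of the ranking were compared across all other genes. Of 12007 genes outside the score that were above 0 in at least 10 of the 50 cells, 1723 (14.3%) were at least 1 higher on the log2 scale in high cells and 753 (6.27%) at least 1 lower. With a pseudocount of 0.1 these counts were 2818 and 1446, and with 10 they were 365 and 101, so they depended strongly on the pseudocount. The counted genes were not split by level. For 3 genes (0.025%) every high cell lay above every low cell, and for 0 genes (0%) every high cell lay below. All 3 were cholesterol synthesis genes, namely Acat2, Cyp51 and Fdft1. Leaving out high cell 11 gave 1 gene on the lower side.

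Cholesterol synthesis genes outside the score were higher in high cells along the whole route. Of 16 members, all 16 passed the filter on low values, 15 (93.8%) were at least 1 higher and 0 were at least 1 lower. Their median difference was 2.77, against 0.05 over all compared genes. Differences ranged from 0.81 for Ebp to 4.80 for Mvd. Their mean level per cell was 7.34 ± 0.35 (SD, n = 12) in high and 4.62 ± 0.69 (SD, n = 12) in low cells, and the groups did not overlap. Leaving out the 2 low cells of lowest score left 15 members at least 1 higher.

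The early steps make mevalonate and turn it into isoprenoid units. Acat2, which joins 2 acetyl-CoA molecules, stood at 9.21, 9.56 and 10.39 in high cells and at 4.66, 6.88 and 8.46 in low cells, a difference of 2.73. The groups did not overlap, and how the authors' counting divided reads between Acat2 and its near-identical copy Acat3 is uncertain. The mean level of Acat2 was 9.58 ± 0.31 in high and 6.85 ± 1.15 in low cells (n = 12 each), a ratio of mean CPM of 5.32.

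Mevalonate is phosphorylated by Mvk and Pmvk and decarboxylated by Mvd. Mvd stood at 5.33, 7.60 and 8.82 in high cells and at 0.00, 1.90 and 6.60 in low cells, with a ratio of mean CPM of 9.04. It was above 0 in all 12 high cells and in 8 low cells. Mvk differed by 2.16 (5.90 ± 1.10 against 3.74 ± 2.36) and Pmvk by 1.78 (7.66 ± 0.63 against 5.88 ± 1.07). For both, the 2 groups overlapped.

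The committed sterol steps run from squalene to lanosterol. Fdft1, squalene synthase, stood at 8.26, 9.07 and 10.09 in high cells and at 0.44, 6.24 and 7.84 in low cells, a difference of 3.25 with no overlap. Its exons overlap those of Ctsb on the other strand, and the strand of the reads is not given, so part of its counts could belong to Ctsb. Lss, which closes the ring to lanosterol, stood at 0.00, 6.56 and 7.90 against 0.00, 1.29 and 6.01. High cells held Lss at 6.18 ± 2.07 and low cells at 2.24 ± 2.45, and 1 high cell lacked it.

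Lanosterol is then trimmed and rearranged to cholesterol. Cyp51 stood at 9.77, 10.41 and 11.55 in high cells and at 4.99, 8.0 and 8.83 in low cells, a difference of 2.92 and a ratio of mean CPM of 6.22. All high cells lay above all low cells, and its exons overlap those of Akap9 on the other strand. Nsdhl, a sterol dehydrogenase that works with Msmo1, stood at 5.81, 8.16 and 9.05 against 0.00, 5.40 and 6.67, a difference of 3.16. Dhcr7, the reductase of a last step of the route, differed by 3.64 (5.73 ± 1.18 against 2.09 ± 2.33) and was above 0 in all 12 high and 7 low cells.

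Differences of the remaining late enzymes were smaller or noisier. Sc5d, a sterol desaturase, differed by 2.54 and Hsd17b7, a ketosteroid reductase, by 2.80. The sterol reductases Tm7sf2 and Lbr differed by 2.26 and 1.55. Ebp, the sterol isomerase, was the single member under 1, at 6.59, 8.44 and 9.38 against 6.50, 7.54 and 8.19. It overlapped widely, with a ratio of mean CPM of 1.84.

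**Figure D2:**
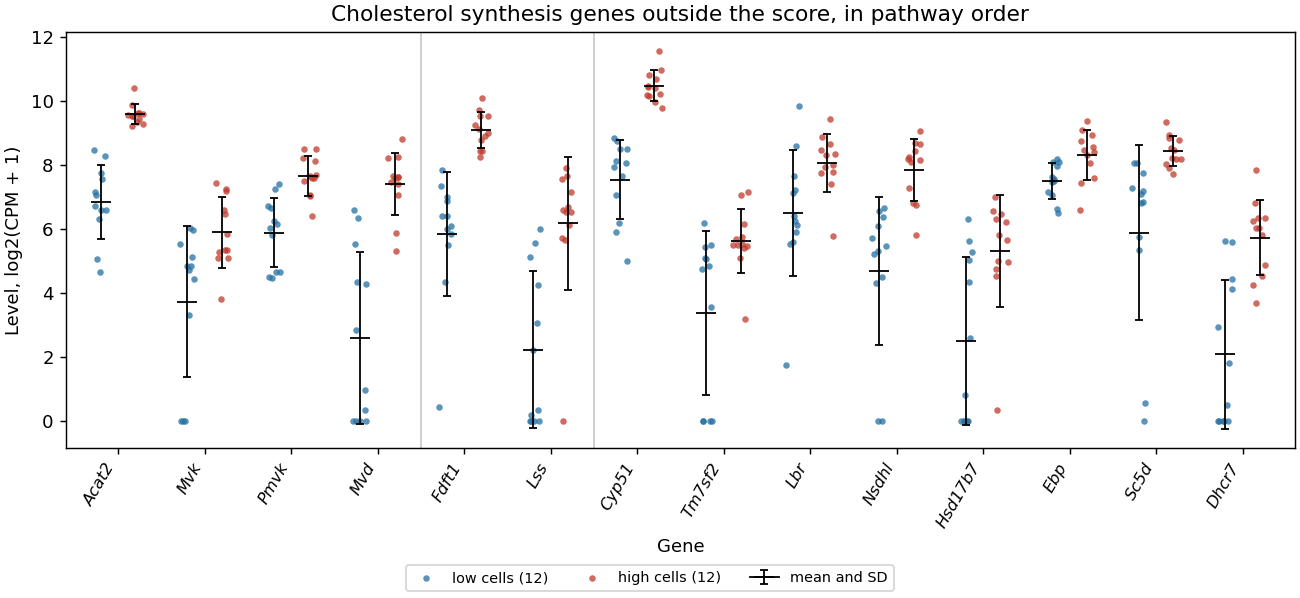
Level in log2(CPM + 1) of 14 of the 16 cholesterol synthesis genes outside the score in the 12 low (blue) and 12 high (red) cells, in pathway order, with mean and SD in black; grey lines separate mevalonate steps, squalene and lanosterol steps, and late steps. Acat2, Fdft1 and Cyp51 are the genes whose groups do not overlap, and Ebp shows the smallest difference (0.81).

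Low cells spread more than high cells. They were also taken over a wider range of scores (3.81 to 7.75, against 9.12 to 9.98). The part of that range in the spread was not tested. The SD over cells was larger in low than in high cells for 15 of the 16 genes (93.8%), against 62.7% of all compared genes. Above 0 in every high cell were 15 of the 16 genes, and in every low cell 6. The same was not counted over all compared genes, so no background share can be set beside it. The number of the 16 genes at 0 ran from 0 to 1 per high cell and from 0 to 5 per low cell, with a median of 2.5 in low cells. Per middle cell it ran from 0 to 6, with a median of 0. A zero here means that the table lists no count, and a missed transcript and an absent one cannot be told apart. Even in low cells the mean of the 16 genes stayed between 3.68 and 5.82.

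The middle cells entered neither group and give values that the choice of the extremes did not set. The mean level of the middle cells lay between those of low and high cells for 16 of the 16 genes. That count was not made over all compared genes, so it has no background share beside it. Within the 26 middle cells alone, rho with the score was above 0 for 15 of the 16, with a median of 0.38. Over all compared genes it was above 0 for 5767 of 12007, with a median of -0.01. Cyp51 had 0.60 there, Fdft1 0.59, Ebp 0.55, and Acat2 and Nsdhl 0.51 each, while Hsd17b7 stood at -0.10. The mean of the 16 genes had a rho of 0.49 in the 26 middle cells and 0.85 in the 50.

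The 21 cholesterol synthesis genes, score genes included, form 210 pairs. Over the 50 cells all 210 pairs had a rho above 0, with a median of 0.45 and a range of 0.01 to 0.83. In the 26 middle cells 170 pairs were above 0, with a median of 0.22 and a range of -0.51 to 0.75. Pairs of other genes were not counted, so these counts have no background share. The scores of the middle cells span a narrower range, from 7.76 to 9.03.

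Among all compared genes, those of highest rho with the score over the 50 cells were again mostly sterol genes. Of the first 10, 8 were cholesterol synthesis genes, among them Cyp51 (0.83), Acat2 (0.82), Fdft1 (0.80), Nsdhl (0.70), Lss (0.65), Mvd (0.65) and Sc5d (0.64). The others were 0610007P14Rik and Cyb5b. RefSeq gives Erg28 as another name of 0610007P14Rik, a gene related to a yeast scaffold of sterol enzymes. It stood at 7.90 ± 0.55 in high and 5.92 ± 1.48 in low cells (n = 12 each), with a rho of 0.64 over the 50 and 0.34 in the middle cells. Cyb5b, a cytochrome b5 of the outer mitochondrial membrane, stood at 8.91 ± 0.41 against 7.57 ± 1.10, with a rho of 0.62 over the 50 and 0.15 in the middle cells.

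Regulators of the pathway differed in both directions. Of 14 SREBP regulators, 7 were at least 1 higher (50%, against 14.3% of all compared genes) and 2 at least 1 lower, with a median difference of 0.79. The count at least 1 higher was 4 without low cell 36, 4 without the 2 low cells of lowest score and 2 with a pseudocount of 10. Srebf2, which encodes SREBP2, stood at 4.52, 6.07 and 7.76 in high cells and at 2.70, 4.70 and 6.37 in low cells, a difference of 1.44. Insig1, itself an SREBP target, stood at 6.58, 7.69 and 8.65 against 0.00, 5.81 and 7.92. Insig1 was split within the low cells, several of which were as high as high cells while others were near 0, giving 4.33 ± 3.27 there against 7.69 ± 0.73.

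For Srebf1, which encodes SREBP1, the 2 measures disagreed in direction. Its mean level was 4.45 ± 1.73 in high and 4.06 ± 2.49 in low cells, while the ratio of mean CPM was 0.669. Insig2 likewise was 1.13 higher as a mean level with a ratio of mean CPM of 0.896. Scap differed by 0.32 and the site proteases Mbtps1 and Mbtps2 by -1.05 and 0.27. The ubiquitin ligases Rnf139 and Rnf145, which act in sterol-regulated degradation, differed by 1.26 and 1.15. Erlin1 and Erlin2, which take part in endoplasmic reticulum degradation, differed by 1.11 (ratio of mean CPM 1.00) and -1.21, and the degradation factors Ubxn4 and Ufd1l stood at 0.47 and -0.00. In the middle cells rho with the score was above 0 for 6 of the 14.

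Some uptake genes were higher in high cells. Of 12 uptake and transport genes, 4 were at least 1 higher (33.3%, against 14.3% of all compared genes) and 0 at least 1 lower, with a median difference of 0.64. The count was 7 with Hmgcs1 left out of the score, 8 with Idi1 left out and 2 with a pseudocount of 10. Stard4 encodes a cytosolic sterol carrier. It stood at 6.31, 7.41 and 8.46 in high and at 2.42, 6.53 and 6.96 in low cells, a difference of 1.86, with a rho of 0.17 in the middle cells. The groups overlapped. The lysosomal exporters Npc1 and Npc2 differed by 0.68 and 0.30, and Lipa, the lysosomal lipase, by -0.47. The HDL receptor gene Scarb1, the membrane sterol carriers Osbp, Gramd1a and Stard3, and Mylip, an LXR-induced ubiquitin ligase, lay between 0.08 and 0.82.

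Many fatty acid synthesis genes were also higher in high cells. Of 18 compared members, 11 were at least 1 higher (61.1%, against 14.3% of all compared genes) and 0 at least 1 lower, with a median difference of 1.49. Without the 2 low cells of lowest score the count was again 11 and the median 1.17. Acss2, which makes acetyl-CoA from acetate, stood at 3.98, 5.65 and 7.0 in high cells and at 0.00, 0.12 and 5.65 in low cells. It was above 0 in all 12 high and 6 low cells, and its exons overlap those of Gss on the other strand. Elovl6, a fatty acid elongase, stood at 5.12, 6.70 and 7.56 against 0.00, 3.02 and 7.17, a difference of 3.42. Lpin1, a phosphatidate phosphatase, was above 0 in 10 high and 2 low cells, at 3.64 ± 2.64 against 0.43 ± 1.26.

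Further members, chosen after their values were seen, were Acly, Fasn and Scd1. Acly, which supplies cytosolic acetyl-CoA, differed by 2.23 (7.63 ± 0.51 against 5.40 ± 2.18). Fasn, the fatty acid synthase, differed by 1.83 and the desaturase Scd1 by 1.97. In the middle cells rho with the score was above 0 for 13 of the 18 genes, with a median of 0.08, and it was 0.47 for Scd1, 0.38 for Elovl6 and 0.07 for Acss2. The median over the cholesterol synthesis genes outside the score was 0.38 in the same cells.

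Some genes of fatty acid oxidation and PPAR targets were lower in high cells. Of 15 compared members, 0 were at least 1 higher, 4 were at least 1 lower (against 6.27% of all compared genes) and 11 lay within 1 of no difference, with a median of -0.44. Cpt1a, which admits fatty acids to mitochondria, stood at 0.00, 4.67 and 6.52 in high and at 3.93, 6.01 and 8.11 in low cells, a difference of -2.32. Fabp5, a fatty acid carrier, was above 0 in 2 high and 7 low cells and Angptl4, a lipase inhibitor, in 4 and 9. Fabp5 was above 0 in 12 cells in all and reached the filter of 10 cells only with its low cells counted. With genes required above 0 in at least 25 libraries, 3 of 12 members were at least 1 lower. The fourth, Hadha, a subunit of the mitochondrial trifunctional protein chosen after its values were seen, differed by -1.95. In the middle cells rho was -0.29 for Cpt1a, -0.38 for Fabp5 and 0.32 for Angptl4. The mean level of Fabp5 in those cells was 0.41, so its rho there rests on few cells above 0.

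Neighbouring branches held single genes past a difference of 1. Of 16 genes for isoprenoid branches and prenylation, which draw on the same farnesyl pyrophosphate, 1 was at least 1 higher (Nus1, 1.34) and 1 at least 1 lower (Dhdds, -1.17), with a median of 0.03. Of 7 compared genes for sterol export, esterification and LXR targets, 1 was at least 1 higher (Nceh1, a cholesterol ester hydrolase, 2.20) and 1 at least 1 lower (Nr1h2, which encodes LXR beta, -1.20). The backgrounds were 14.3% higher and 6.27% lower. For the isoprenoid list the count at least 1 higher turned on the score: it was 5 with Hmgcs1 or with Idi1 left out (medians 0.92 and 0.60), 4 with Msmo1 or with Fdps left out (medians 0.43 and 0.36), and 1 with Sqle left out. For the sterol export list it was 3 with Idi1 left out.

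**Figure D3:**
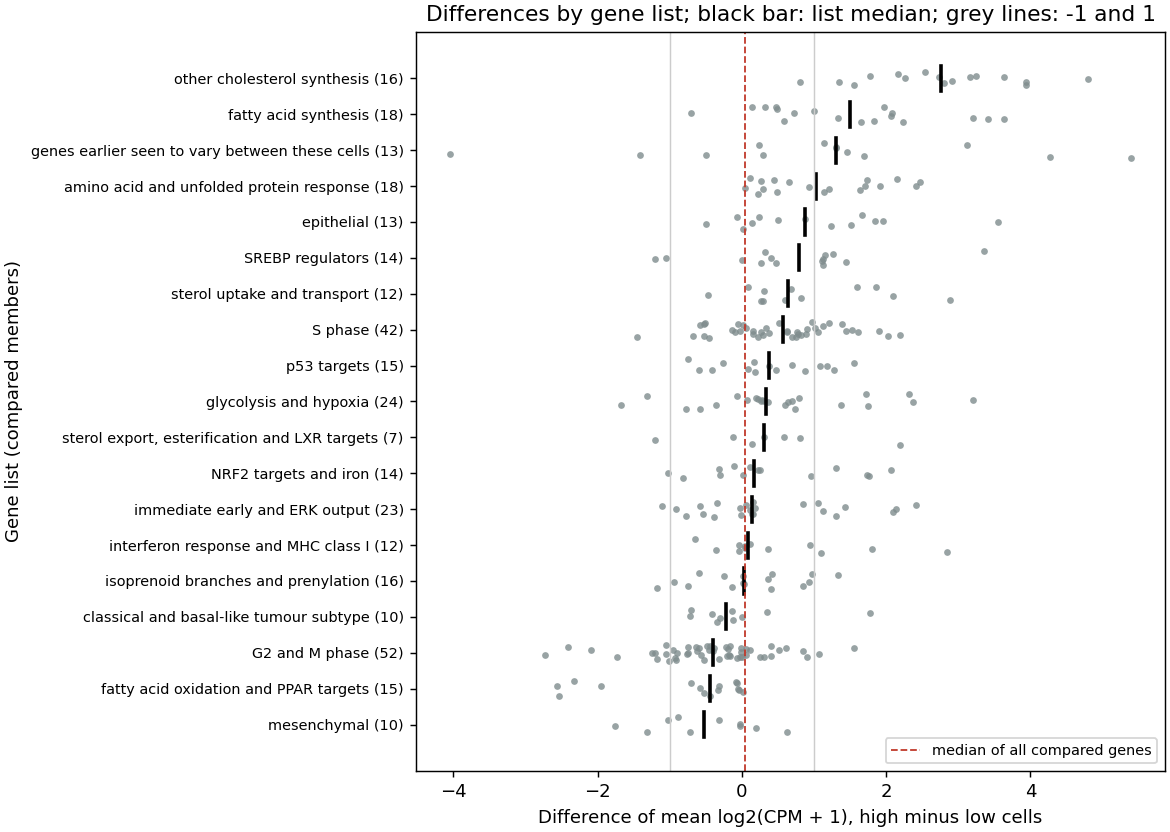
Difference of mean log2(CPM + 1), high minus low cells, for each compared member (grey points) of each gene list with 7 or more of them; black bars are list medians, the dashed line is the median of all compared genes (0.05), and grey lines mark -1 and 1. Cholesterol synthesis (median 2.77) and fatty acid synthesis (1.49) have the highest medians, and mesenchymal genes (-0.52) the lowest.

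Amino acid and unfolded protein response genes were also higher. Of 18 compared members, 9 (50%, against 14.3% of all compared genes) were at least 1 higher and 0 at least 1 lower, all 18 differences were above 0, and the median was 1.03. Asns, the asparagine synthetase, stood at 9.10 ± 1.26 in high and 6.95 ± 1.64 in low cells (n = 12 each), and Herpud1 and Atf3 differed by 2.47 and 2.41. Herpud1 was above 0 in 12 high and 9 low cells, with medians of 7.33 and 6.30 and a ratio of mean CPM of 1.51. Atf3 was above 0 in 11 high and 8 low cells, with a ratio of 2.98. In the middle cells, however, rho with the score was above 0 for 2 of the 18, and it was -0.03 for Asns. With a pseudocount of 10 the count at least 1 higher was 5.

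Other stress and signalling lists had medians of 0.08 to 0.38, with 25% to 30.4% of members at least 1 higher against 14.3% of all compared genes. Of 24 glycolysis and hypoxia genes 6 were at least 1 higher and 2 at least 1 lower, with a median of 0.33, and Pfkp, a phosphofructokinase, differed by 3.20. The counts were 7 and 1 of 23 for immediate early and ERK output genes (median 0.14), and 4 and 0 of 15 for p53 targets (median 0.38). Leaving out high cell 47 left 2 p53 targets at least 1 higher. For NRF2 and iron genes the counts were 4 and 1 of 14 (median 0.17), and for interferon and MHC class I genes 3 and 0 of 12 (median 0.08). With a pseudocount of 10 the counts at least 1 higher were 3 for glycolysis and hypoxia, 5 for immediate early and ERK output, 0 for p53, 1 for NRF2 and iron and 1 for interferon and MHC class I genes. For immediate early genes the median was -0.02 with levels centred within label-number blocks, so its sign was not fixed. H2-K1, an MHC class I heavy chain, differed by 2.84 (6.84 ± 1.11 against 4.0 ± 2.50).

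Cell cycle lists differed between the groups, but their counts turned on single cells and on which genes made the score. Over all compared genes 14.3% were at least 1 higher and 6.27% at least 1 lower. Of 42 S phase genes 11 were at least 1 higher (26.2%) and 1 at least 1 lower (median 0.57), led by E2f8 at 2.19. Scores that left out 1 of the 5 genes gave 10 to 23 S phase genes at least 1 higher. Of 52 G2 and M phase genes 2 were at least 1 higher (3.85%) and 10 at least 1 lower (median -0.40). The count at least 1 lower was 3 with Hmgcs1 left out of the score, 5 without high cell 29 or without high cell 11, 18 without low cell 5 and 18 with Sqle left out of the score. The median difference of this list was 0.11 with Hmgcs1 left out of the score, so its direction was not fixed. With S phase and G2 and M phase levels regressed out, 14 of the 16 cholesterol synthesis genes were still at least 1 higher.

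The labelled cell type was checked against ductal keratins and Cdh1. Krt8 stood at 11.07 ± 0.52 in high and 10.92 ± 0.87 in low cells and Krt18 at 11.26 ± 0.63 against 11.24 ± 0.61, and both were above 0 in all 24. Krt19 differed by -0.49 and Cdh1 by 0.87, also above 0 in all 24, and Krt7 by 1.52 (ratio of mean CPM 1.13), above 0 in all but 1 low cell. Of 13 epithelial genes 6 were at least 1 higher (46.2%, against 14.3% of all compared genes) and 0 at least 1 lower (median 0.87), among them the tight junction genes Cldn7 (3.55) and Ocln (1.84). With Idi1 left out of the score the counts were 4 and 2. The summed level of the measured epithelial genes had a median of 8620 CPM in high and 9140 CPM in low cells. In the middle cells rho with the score was above 0 for 5 of the 13, and it was -0.29 for Cldn7. Of 10 mesenchymal genes 0 were at least 1 higher and 3 at least 1 lower, against 14.3% and 6.27% of all compared genes. Their median difference was -0.52, with Sparc at -1.76, Fn1 at -1.31 and Zeb1 at -1.03. Sparc was above 0 in 12 cells in all, 6 of them low and 2 high. It reached the filter of 10 cells only with its low cells counted. With genes required above 0 in at least 25 libraries, 2 of 9 mesenchymal genes were at least 1 lower. With Hmgcs1 left out of the score 2 mesenchymal genes were at least 1 higher and 1 at least 1 lower, with a median of 0.07, so the direction of this list was not fixed, and with a pseudocount of 10 the counts were 0 and 0. The mesenchymal count at least 1 lower was 1 when any one of high cells 29, 52, 11 and 32 or low cell 12 was left out, and Fn1 was 0.49 higher when Hmgcs1 was left out of the score. Of 10 genes of the classical and basal-like tumour subtypes, 1 was at least 1 higher and 0 at least 1 lower (median -0.21). The shares over all compared genes were 14.3% and 6.27%. That gene was Lgals4 (1.78), with medians of 10.27 in high and 10.20 in low cells and a ratio of mean CPM of 1.05. Lgals4 was above 0 in 12 high and 10 low cells, so its difference rested on the low cells at 0.

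Markers of other cell types were at 0 for the most part, and a few were found in both groups. Of the measured markers, 6 of 10 immune, 7 of 8 endothelial, 6 of 10 fibroblast, 2 of 5 acinar and 3 of 7 adipocyte and hepatocyte genes were at 0 in all 24 cells. The defining genes Cd3e, Csf1r, Pecam1, Cdh5, Col1a2 and Dcn were among those at 0, and Ptprc was above 0 in 1 cell. The summed level of the immune list ran up to 27.6 CPM in high and 29.2 CPM in low cells, and that of the fibroblast list up to 104 and 75 CPM. The acinar list ran up to 41.6 CPM in high and 42.3 CPM in low cells. The endothelial list reached 23.7 CPM in high cells and 215 CPM in low cells, where it came from Egfl7. Adipocyte and hepatocyte genes reached 187 and 214 CPM, mostly Apob, which was above 0 in 18 of the 24 cells. Egfl7 was above 0 in 9 of the 24, Acta2 reached 104 CPM, Ttr 136 CPM and Apoa1 113 CPM. Their part in the differences was not tested. Of 8 listed islet genes 1 was measured, Chga, with at most 0.252 CPM in high cells and 0 in low cells.

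Outside the sterol lists, the largest differences were in genes expressed by some cells and not others. Upk1b, a uroplakin of epithelial surfaces, stood at 0.00, 8.69 and 10.69 in high cells and at 0.00, 0.00 and 7.15 in low cells, a difference of 5.39. It was above 0 in 10 high and 3 low cells. Plat, the tissue plasminogen activator, stood at 0.00, 8.34 and 10.18 against 0.00, 2.02 and 9.15, a difference of 4.27. Both groups reached from 0 to high levels for both genes. In the middle cells rho with the score was 0.03 for Upk1b and -0.12 for Plat.

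The other 10 of the 12 largest positive differences ran from 3.69 to 4.40. They were the galactosyltransferase B4galt4 (4.40), the sulfotransferase Sult1c2 (4.30), 4930461G14Rik (4.12), 8430408G22Rik (4.06), the aldolase Aldoc (4.03), the surface glycoprotein Prom1 (3.92), Reep6 (3.92), Eps8l3 (3.77), Cryl1 (3.75) and the aspartoacylase Aspa (3.69). Of the 12, 4 had a rho above 0 in the middle cells, and Eps8l3 had -0.38. Over all 1723 genes at least 1 higher, 814 (47.2%) had a rho above 0 there, a share near that of all compared genes (5767 of 12007). For the cholesterol synthesis genes outside the score the count was 15 of 16.

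Upk1b and Plat belong to a list of 13 genes earlier seen to vary between these same cells. Of these 8 were at least 1 higher (61.5%) and 2 at least 1 lower, against 14.3% and 6.27% of all compared genes. The list was chosen on these libraries, so it is not independent evidence. Spp1, the osteopontin gene and a member, took a median of 1.60% of gene counts in high and 0.869% in low cells.

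Among genes higher in low cells, Sgk1 differed most. Sgk1, a serum- and glucocorticoid-inducible kinase, stood at 0.00, 2.66 and 7.09 in high cells and at 4.68, 7.14 and 9.42 in low cells, a difference of -4.04. All 12 low cells and 7 high cells held it, and its rho was -0.42 over the 50 but -0.05 in the middle cells. The other 11 ran from -3.17 to -2.64 and included Coasy (-3.17), the phospholipase Pla2g7 (-2.93) and Il1rn, the interleukin-1 receptor antagonist (-2.90). They also included 2610528A11Rik (-2.81), Rnf214 (-2.78), Cenpe (-2.73), Nes (-2.69), Zfp433 (-2.69), Slco2a1 (-2.68), Pigm (-2.67) and Tecpr1 (-2.64). Pla2g7 was above 0 in 13 and 2610528A11Rik in 10 of the 50 cells, with 6 low cells for each. Both reached the filter of 10 cells only with those low cells counted, so the low cells themselves admitted them. Of the 12, 7 had a rho below 0 in the middle cells, with Il1rn at -0.33. Over all 753 genes at least 1 lower, 424 (56.3%) did. Among all compared genes rho there was above 0 for 5767 of 12007, so most of them were not above 0 either.

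The gene of most negative rho with the score was Gpx1. Gpx1, a selenium-dependent glutathione peroxidase, stood at 8.07, 8.61 and 9.54 in high cells and at 9.00, 9.52 and 10.92 in low cells, a difference of -1.15 and a ratio of mean CPM of 0.424. The groups overlapped in a narrow band, and rho was -0.71 over the 50 and -0.45 in the middle cells. Next came Antxr1 (-0.52), Xcr1 (-0.49), Lgals3 (-0.49) and Mgst3 (-0.48). Xcr1 was of very low level, with a mean CPM of 0.121 in high and 0.695 in low cells. Antxr1, an anthrax toxin receptor, was above 0 in 8 low cells and in 0 of the 12 high cells. It was above 0 in 13 of the 50 cells and reached the filter of 10 only with its low cells counted. Lgals3, which encodes galectin-3, stood at 8.69 ± 0.73 in high and 9.64 ± 0.91 in low cells, and Mgst3, a microsomal glutathione transferase, at 8.52 ± 0.42 against 9.15 ± 0.57. For these, rho in the middle cells was -0.31 for Antxr1, -0.35 for Lgals3, -0.09 for Xcr1 and -0.49 for Mgst3.

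**Figure D4:**
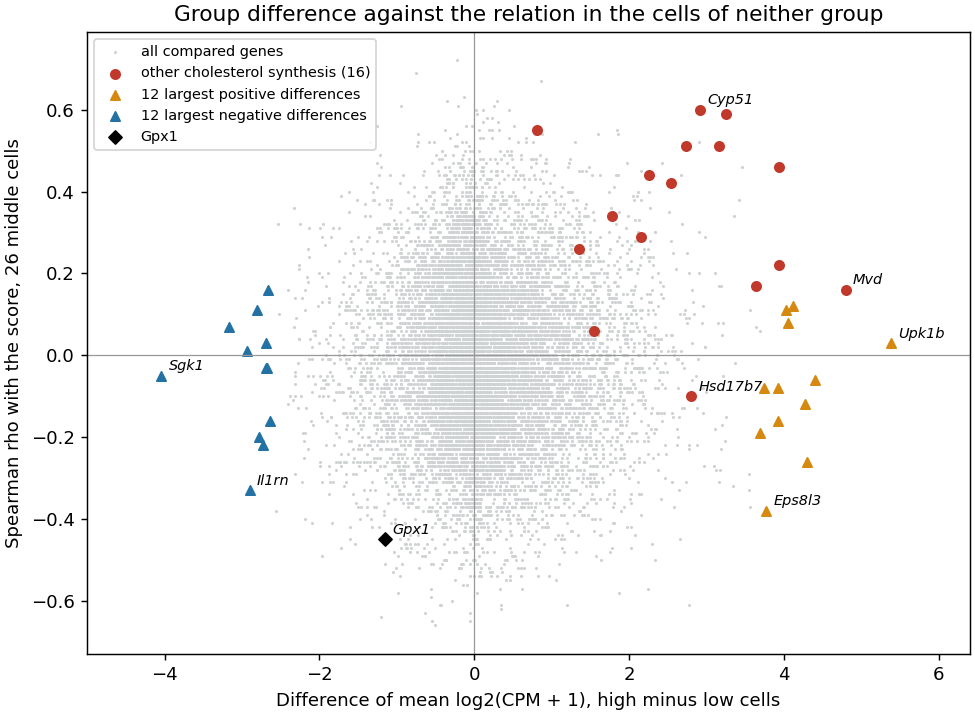
Each compared gene by its difference of mean log2(CPM + 1), high minus low cells (x axis), and its Spearman rho with the score in the 26 middle cells (y axis); cholesterol synthesis genes outside the score are red, the 12 largest differences in each direction are triangles and Gpx1 is a black diamond. Of the 16 cholesterol synthesis genes 15 lie above 0 on the y axis, whereas 4 of the 12 largest positive differences do.

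**Figure D5:**
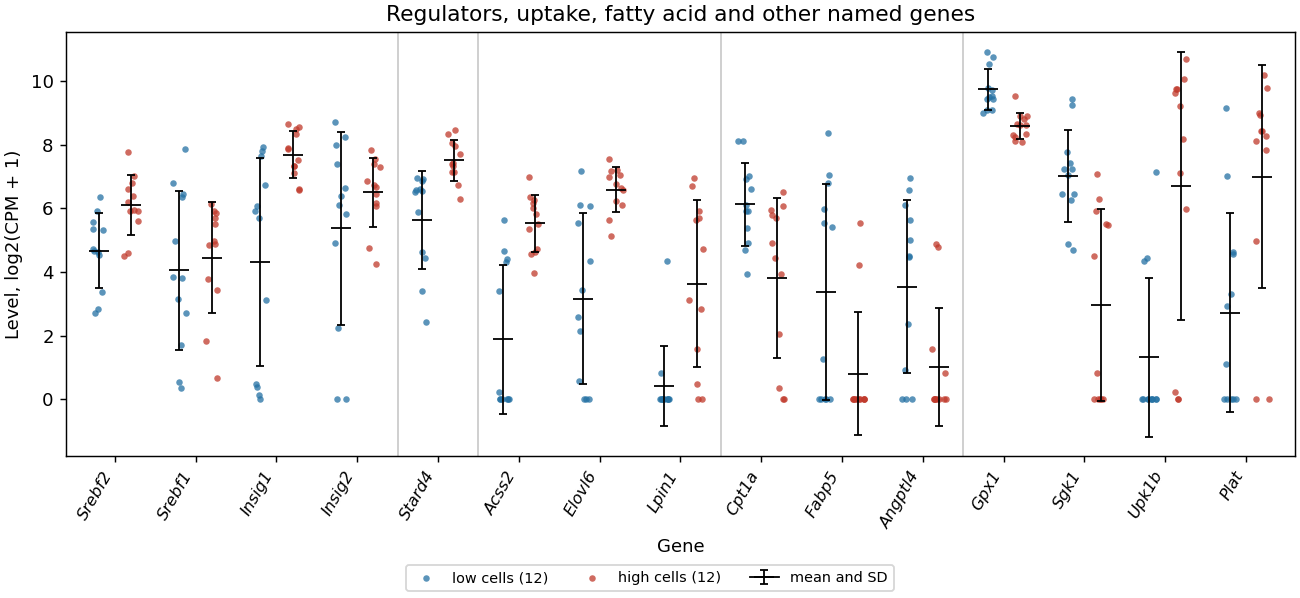
Level in log2(CPM + 1) of named regulators, uptake, fatty acid synthesis, fatty acid oxidation and other genes in the 12 low (blue) and 12 high (red) cells, with mean and SD in black. Insig1 and Elovl6 are tight in high and scattered in low cells, Gpx1 is higher in low cells, and Upk1b and Plat are spread from 0 upward in both groups.

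Depth and quality measures overlapped between the groups. Gene counts per library ran from 2536572 to 10592758 in high cells (median 7084251.5) and from 2153895 to 10757652 in low cells (median 5713784.5). Detected genes had a median of 9062 against 8494.5, and 8526.5 against 8164.5 after every library was thinned to 2153864 counts. ERCC shares had a median of 0.58% in high and 0.795% in low cells. The part of these measures in the differences above was not tested beyond the alternatives given here: 15 of the 16 cholesterol synthesis genes were at least 1 higher with detected genes regressed out, after thinning, and with levels centred within blocks of 12 label numbers. High and low cells each came from several such blocks. In the first block lay 1 high and 3 low cells, and in the last 0 high and 2 low.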

How the data were processed

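RNA was sequenced from 62 single cells of 1 culture. The authors deposited estimated counts per gene symbol, and per the submitters' processing notes the tool was kallisto and the build mm9. Its version, the annotation, the strand setting and the step from transcripts to genes are not given in the sources. The table held 19112 gene rows and 65 ERCC rows, and 66.18% of values above 0 were whole within 1e-06. Symbols altered by table software were restored for 1092 rows, 17941 matched RefSeq as given, and 79 kept the name in the table.

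Libraries with an ERCC share under 20% (0.19% to 1.83%, n = 50) were kept, and 12 with 22.3% to 97.2% were left out. Counts were used unrounded, except for thinning, scaled to CPM over gene rows, and taken as log2(CPM + 1). Genes above 0 in at least 10 of the 50 libraries, score genes left out, were compared as a difference of mean level. A difference of at least 1 or at most -1 was the size counted. Each library is 1 cell of 1 culture, so no test was run. Kept libraries held 2153895 to 12868806 gene counts, and no pair held identical values (0). No doublet caller was run. Python 3.11.15, numpy 2.4.6, pandas 2.3.3 and scipy 1.17.1 were used, and the computation was checked on simulated data.

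The members and gene lists were chosen with earlier results of these data known. Named were the score genes, all of the cholesterol synthesis, SREBP regulator and uptake lists, the 12 largest differences in each direction outside them, the 3 largest of each other list, and the genes of the 10 highest and 5 lowest rho. Any other gene is said to be chosen after its values were seen. Promoters came from RefSeq on GRCm38.p6, a build other than that of the counts, so no count is tied to a coordinate. Exon overlaps were read from GENCODE M21 and found for 31 of the 127 named genes it held, among them Lss, Srebf1, Npc1, Rnf214, Nusap1 and Pfkp, whose counts are uncertain by the share of their neighbours. Alternatives covered the pseudocount, filter, scaling, depth, cell cycle levels, label-number blocks, the score genes, the ERCC limit and leaving out cells. Some genes that the naming rule takes are not reported here, though they count within their lists.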

Additional observations from a re-analysis of the deposited data

Results flagged for a closer look

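The 12 libraries with an ERCC share of 20% or more entered no comparison above, yet transcripts of the score genes were found in some of them. Idi1 was above 0 in 9 of the 12, Sqle in 6, Msmo1 in 4, and Hmgcs1 and Fdps in 3 each. Their scores ran from 0.00 to 7.45 with a median of 1.63, and with all 62 libraries ranked, 10 of them were among the 12 lowest and 0 among the 12 highest. In these libraries the spike-ins took 22.3% to 97.2% of counts, and gene counts ran from 112196 to 1133747, against at least 2153895 in the 50 others. The highest score, 7.45, belonged to cell 43, which held 389192 gene counts and 9041 detected genes and would lie within the range of the low cells.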

How the results depend on the processing

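No paired analysis was possible because the labels number single cells of 1 culture and pair none of them. The count of cholesterol synthesis genes outside the score that were at least 1 higher ran from 13 to 16 over all settings run, and their median difference from 1.95 to 3.18 apart from ranking all 62 libraries. A pseudocount of 0.1 gave 2818 genes at least 1 higher and 1446 lower, and a pseudocount of 10 gave 365 and 101. The number of genes without overlap on the higher side was 1 with Fdps or with Msmo1 left out of the score and 0 with Idi1 left out. Ranking all 62 libraries gave 8212 genes at least 1 higher, a median difference of 5.78 for the 16 genes and 2.10 for all genes, and 74 and 2 genes without overlap, since 10 of its 12 low cells were then ERCC-rich.

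Leaving out each of the 24 cells gave 1660 to 2031 genes at least 1 higher, 648 to 899 lower, 15 to 15 of the 16 genes, medians of 2.57 to 2.94 and of 0.03 to 0.09, and 3 to 4 and 0 to 1 genes without overlap. Direction reversed for Fn1 with Hmgcs1 left out of the score (0.49). With all 62 libraries ranked it reversed for Aurka (3.80), Gpx1 (4.09), Dhdds (3.28), Nusap1 (2.90), Cenpe (2.38), Mbtps1 (2.30), Cpt1a (1.94), Fn1 (1.90), Erlin2 (1.82), Nr1h2 (1.66), Sgk1 (1.56), Zeb1 (1.31), Coasy (1.26), Il1rn (1.24), Zfp433 (0.96), Fabp5 (0.81), Angptl4 (0.23) and Pigm (0.14). Of 100 named genes past a difference of 1, 91 to 100 stayed past it in the same direction under the other settings, except 73 with a pseudocount of 10 and 75 with all 62 libraries. Leaving out the 2 low cells of lowest score, a setting chosen after seeing the data, kept 94. Of the 1723 genes at least 1 higher, 55 (3.19%) had a ratio of mean CPM under 1.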
